A study of Homo sapiens with 12 samples.

Results

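The kinesin motor family was examined in bulk RNA sequencing of 2 human endometrial cancer lines exposed to copper. Members were taken by symbol, as every gene named KIF with a number, or KIFC1 to KIFC3, in the deposited expression table. This gave 42 genes of 20332. Of these, 12 act mainly in cell division and are called the mitotic kinesins here (KIF2C, KIF4A, KIF11, KIF14, KIF15, KIF18A, KIF18B, KIF20A, KIF20B, KIF22, KIF23 and KIFC1), and the remaining 30 are called the other kinesins. KLE and Ishikawa are established lines grown from endometrial carcinoma. The 4 groups were KLE cells given 200 µM CuCl2 for 24 h, untreated KLE cells, Ishikawa cells given 200 µM CuCl2 for 24 h, and untreated Ishikawa cells. Each group held 3 libraries that the labels call independent biological replicates, 12 in all. All cells grew in the same serum-containing medium, and the controls are named both untreated and vehicle in the labels, with no vehicle stated.

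Kinesins are motors that use ATP to walk along microtubules, most of them toward the plus end. In dividing cells one set of them builds the spindle, moves and aligns chromosomes and closes the midbody, and their genes are switched on late in the cell cycle through promoters that hold CHR and CCAAT elements. In cells between divisions other kinesins carry vesicles, mitochondria and lysosomes, feed the primary cilium and tune microtubule growth at the cell cortex. In bulk RNA, fewer cells of a type and less RNA per cell cannot be told apart, so a lower level of a mitotic kinesin can reflect either.

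Libraries held between 14050275 and 25057003 counts. The defining markers of endometrial epithelium (PAX8, EPCAM, CDH1, KRT8 and KRT18) summed to 5201 to 5271 TPM in copper-treated and 4552 to 4784 TPM in untreated KLE cells, and to 2269 to 2365 TPM in copper-treated and 3314 to 3690 TPM in untreated Ishikawa cells. TPM are transcript shares of a library, scaled to transcript length by the authors. In KLE cells the epithelial markers did not move together. KRT8 (mean 2000 TPM with copper and 1610 without) and KRT18 (1700 and 1400) were higher with copper. PAX8 (353 and 438), EPCAM (993 and 1040) and CDH1 (179 and 196) had lower means with copper there. The 6 stromal markers, led by DCN, summed to 14.9 to 32.0 TPM in copper-treated and 23.0 to 50.7 TPM in untreated KLE cells, and to 16.2 to 37.8 TPM in copper-treated and 6.58 to 29.9 TPM in untreated Ishikawa cells. The part of either marker list in the results was not tested. ESR1, the estrogen receptor for which Ishikawa cells are often used, stood between 0.015 and 0.51 TPM in all 12 libraries. The untreated libraries of the lines were alike, with a correlation across genes of 0.981 to 0.985 between a KLE and an Ishikawa library and 0.995 to 0.997 within a line (log2 of TPM + 1). The lines are named as the labels name them, which also state short tandem repeat authentication, and their identity was not tested here. The second untreated Ishikawa library stood apart from its group, and calls that change without it are given beside the result.

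The promoters of the 3 mitotic kinesins that fell most in Ishikawa cells and of the 2 other kinesins that rose most there are shown first, as the genes on which the results below turn. Each is a RefSeq window on GRCh38.p14 with 250 bases before and 50 after the annotated start, on the coding strand. Capitals mark a CHR element (TTTGAA or TTTAAA on either strand) or a CCAAT box (on either strand, so also ATTGG).
KIF20A, chr5:138178862-138179161, plus strand: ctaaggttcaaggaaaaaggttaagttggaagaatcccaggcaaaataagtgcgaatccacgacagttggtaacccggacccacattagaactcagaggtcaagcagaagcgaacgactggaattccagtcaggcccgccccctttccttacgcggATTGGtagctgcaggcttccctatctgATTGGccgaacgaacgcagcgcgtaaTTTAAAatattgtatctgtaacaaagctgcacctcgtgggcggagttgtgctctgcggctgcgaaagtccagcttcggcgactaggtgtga
KIF15, chr3:44761544-44761843, plus strand: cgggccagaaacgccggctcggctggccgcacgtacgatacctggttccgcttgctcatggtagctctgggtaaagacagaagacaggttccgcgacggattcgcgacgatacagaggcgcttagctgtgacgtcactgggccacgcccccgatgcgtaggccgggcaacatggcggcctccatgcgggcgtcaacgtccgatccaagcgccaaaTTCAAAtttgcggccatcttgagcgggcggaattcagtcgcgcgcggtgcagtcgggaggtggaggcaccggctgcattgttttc
KIF11, chr10:92592880-92593179, plus strand: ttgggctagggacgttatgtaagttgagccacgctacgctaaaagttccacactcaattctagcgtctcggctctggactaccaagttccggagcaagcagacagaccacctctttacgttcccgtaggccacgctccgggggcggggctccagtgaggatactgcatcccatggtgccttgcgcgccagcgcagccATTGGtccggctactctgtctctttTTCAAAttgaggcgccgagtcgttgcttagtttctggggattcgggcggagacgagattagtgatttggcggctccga
KIF1B, chr1:10210456-10210755, plus strand: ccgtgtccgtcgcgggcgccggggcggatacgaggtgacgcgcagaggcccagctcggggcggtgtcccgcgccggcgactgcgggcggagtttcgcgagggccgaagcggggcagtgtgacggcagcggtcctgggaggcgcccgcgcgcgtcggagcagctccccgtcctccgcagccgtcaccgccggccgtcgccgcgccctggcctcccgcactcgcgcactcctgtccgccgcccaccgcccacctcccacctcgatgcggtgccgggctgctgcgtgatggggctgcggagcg
KIF21A, chr12:39443071-39443370, minus strand: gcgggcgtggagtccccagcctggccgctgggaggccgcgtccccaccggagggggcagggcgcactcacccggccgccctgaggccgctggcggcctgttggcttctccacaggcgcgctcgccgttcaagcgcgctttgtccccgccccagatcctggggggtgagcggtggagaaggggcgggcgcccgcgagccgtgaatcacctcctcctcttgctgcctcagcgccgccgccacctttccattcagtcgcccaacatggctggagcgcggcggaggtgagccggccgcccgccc
KIF20A held 1 CHR match and 2 CCAAT matches, KIF11 held 1 of each, and KIF15 held a CHR match alone. These CHR matches began at base 210 of the window in KIF20A, 216 in KIF15 and 223 in KIF11, all shortly before the start, and shared no base with a CCAAT match. KIF21A held neither motif. KIF1B has 3 windows in the table, of which the one shown held neither motif and the others held 2 and 1 CCAAT matches.

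Over the whole family, all 12 mitotic kinesins and 22 of the other kinesins had a promoter in the RefSeq table. A CHR match was present in 11 of 13 mitotic kinesin promoters (84.6%) and 3 of 30 promoters of the other kinesins (10%), beside 24% of all 35116 promoters of the same length. A CCAAT match was present in 10 of 13 (76.9%) and 10 of 30 (33.3%), beside 34.6% of all. Both motifs together were present in 9 of 13 (69.2%) and 2 of 30 (6.67%), beside 9.27% of all. KIF22 was the mitotic kinesin whose 2 windows held no CHR match. The promoters of KIF14, KIF20B and KIF23, which did not pass the test in Ishikawa cells, held both motifs. A match is a run of letters in this window, and binding was not measured.

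KIF5B, the conventional kinesin heavy chain, and KIF1A, a vesicle motor best known from neurons, were the most abundant kinesins per length in every group. KIF1A stood at 182 ± 1.84 TPM in copper-treated and 163 ± 6.07 TPM in untreated KLE cells, and at 155 ± 4.27 TPM in copper-treated and 138 ± 8.10 TPM in untreated Ishikawa cells (mean ± SD, n = 3). KIF5B stood at 169 ± 2.60 and 161 ± 1.87 TPM in copper-treated and untreated KLE cells, and at 199 ± 7.76 and 155 ± 8.11 TPM in copper-treated and untreated Ishikawa cells. The place of KIF20A in this order was lower with copper in both lines. It was 13th of the 42 members by TPM in copper-treated KLE cells and 6th in untreated ones, and 17th in copper-treated Ishikawa cells and 3rd in untreated ones. KIF2B, KIF19 and KIF25 were at 0 in all but 1 library each, at no more than 0.0741 CPM.

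Most mitotic kinesins were lower with copper in both lines, while the other kinesins moved in both directions. In KLE cells 9 members were higher and 15 lower of 34 tested, and in Ishikawa cells 7 were higher and 16 lower of 33 tested (edgeR quasi-likelihood test, Benjamini-Hochberg adjusted p under 0.05 over all genes). Copper moved much of the transcriptome, and 50.8% of all tested genes were called in KLE cells (25.6% higher, 25.2% lower) and 69.1% in Ishikawa cells (33.8% higher, 35.3% lower). Against that background the mitotic kinesins leaned one way, with 12 of 12 lower and 0 higher in KLE cells and 9 of 12 lower and 0 higher in Ishikawa cells. Their median log2 fold change was −0.41 in KLE cells and −0.51 in Ishikawa cells, beside −0.002 and −0.013 over all tested genes. Of the other kinesins, 9 were higher, 3 lower and 10 not called in KLE cells, and 7 were higher, 7 lower and 7 not called in Ishikawa cells. Their median was 0.06 in KLE cells and 0.03 in Ishikawa cells, and the Ishikawa median changed sign under upper-quartile (−0.087) and library-total (−0.129) scaling, where the median of all tested genes was −0.125 and −0.167, and with limma on the TPM (−0.290). The mitotic median was below 0 in both lines under all 4 scalings tried (TMM, RLE, upper quartile and library totals).

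**Figure D1:**
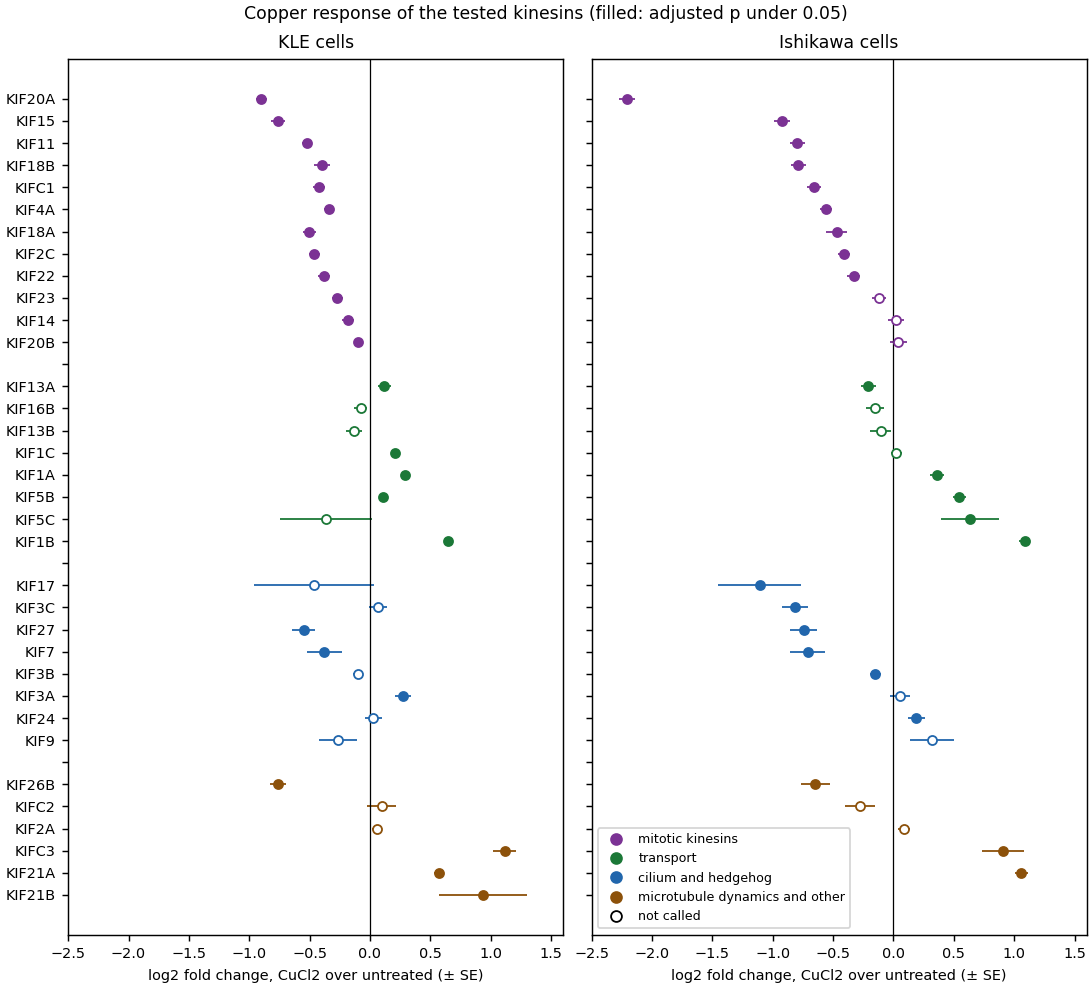
Log2 fold changes (x axis, CuCl2 over untreated, ± SE) of the 34 kinesins tested in KLE cells (left) and the 33 tested in Ishikawa cells (right), grouped by role; filled points passed adjusted p under 0.05. The mitotic kinesins at the top sit left of 0 in KLE cells and, apart from KIF14 and KIF20B, also in Ishikawa cells, with KIF20A farthest at −0.90 and −2.21.

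Library by library, KIF20A set the lower end of the family. KIF20A (also called MKLP2) carries the chromosomal passenger complex to the central spindle before the cell divides. In copper-treated KLE cells it stood at 70.9, 77.5 and 71.7 CPM, against 143, 136 and 133 CPM in untreated KLE cells (CPM are counts scaled to library size with TMM factors). In copper-treated Ishikawa cells it stood at 36.7, 32.4 and 38.2 CPM, against 167, 165 and 172 CPM in untreated Ishikawa cells. The groups were far apart in both lines, and the copper-treated Ishikawa libraries were the lowest of the 12. The log2 fold change was −0.90 ± 0.05 in KLE cells (SE, edgeR adjusted p = 3.29e-20) and −2.21 ± 0.06 in Ishikawa cells (edgeR adjusted p = 8.19e-13). Among all tested genes, 3.59% in KLE cells and 8.82% in Ishikawa cells were called lower by 1 or more on the log2 scale, and KIF20A in Ishikawa cells was the one mitotic kinesin to do so. KIF20A overlaps the opposite-strand coding genes CDC23 and BRD8, and strand use in the counting is not given in the sources used here. CDC23 changed by −0.03 in KLE cells (not called) and 0.45 in Ishikawa cells (called higher), and BRD8 by −0.07 (not called) and 0.18 (called higher), so neither neighbour was called lower. Genes at other mitotic loci did fall. TMEM42, on the same strand as KIF15 and overlapping it, gave 0.48 in KLE cells (called higher) and −0.82 in Ishikawa cells (called lower). METTL15, on the strand opposite KIF18A, gave −0.11 in KLE cells (not called) and −0.28 in Ishikawa cells (called lower). Whether reads were shared between these genes was not tested.

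The motors that hold the spindle poles apart fell in both lines. KIF11 (Eg5) slides antiparallel spindle microtubules outward, and KIF15 can take over this work when KIF11 is blocked. KIF11 stood at 168, 173 and 159 CPM in copper-treated and 248, 238 and 233 CPM in untreated KLE cells. In Ishikawa cells KIF11 stood at 144, 155 and 140 CPM with copper, against 260, 238 and 282 CPM without. No copper-treated library reached the lowest untreated library of its line, and the log2 fold change was −0.52 ± 0.04 in KLE cells and −0.80 ± 0.06 in Ishikawa cells. KIF15 stood at 40.2, 39.5 and 38.3 CPM in copper-treated KLE cells, against 68.5, 61.9 and 70.3 CPM in untreated KLE cells. In copper-treated Ishikawa cells KIF15 stood at 51.8, 47.0 and 49.3 CPM, against 95.5, 89.0 and 103 CPM in untreated Ishikawa cells. Here too the groups did not overlap, and KIF15 had the second lowest fold change of the family's mitotic members in both lines (−0.76 ± 0.06 in KLE cells and −0.92 ± 0.07 in Ishikawa cells). KIFC1 (HSET), a minus-end motor that gathers spindle poles and centrosomes, stood at 67.9, 62.4 and 68.4 CPM with copper and 92.0, 83.6 and 90.4 CPM without in KLE cells. Its Ishikawa levels were 65.0, 68.4 and 66.9 CPM with copper and 105, 113 and 104 CPM without. The copper-treated libraries of the lines thus lay in 1 range for KIFC1, and its fold changes were −0.42 ± 0.05 in KLE cells and −0.66 ± 0.06 in Ishikawa cells.

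Kinesins that shorten microtubules or restrain chromosomes at the spindle equator fell in both lines. KIF2C (MCAK), a depolymerase at centromeres, stood at 101, 99.4 and 91.8 CPM in copper-treated and 139, 132 and 131 CPM in untreated KLE cells. In Ishikawa cells KIF2C stood at 100, 95.7 and 99.4 CPM with copper, against 130, 137 and 134 CPM without. Its levels overlapped between the lines within each treatment, and its fold changes were −0.46 ± 0.04 in KLE cells and −0.41 ± 0.05 in Ishikawa cells. KIF18A, which damps chromosome oscillation at the metaphase plate, stood at 47.6, 42.4 and 43.0 CPM in copper-treated and 64.3, 60.4 and 64.0 CPM in untreated KLE cells. Its Ishikawa levels were 36.2, 43.8 and 40.9 CPM with copper and 60.1, 50.6 and 60.5 CPM without, with the second untreated library the lowest of its group. The log2 fold change of KIF18A was −0.50 ± 0.06 in KLE cells and −0.47 ± 0.09 in Ishikawa cells. KIF18B, which works with KIF2C on astral microtubules, stood at 40.8, 37.9 and 33.1 CPM in copper-treated KLE cells, against 46.9, 52.1 and 48.2 CPM in untreated KLE cells. In Ishikawa cells KIF18B stood at 34.1, 36.7 and 35.9 CPM with copper, against 62.3, 62.8 and 62.6 CPM without. The groups did not overlap in either line, and the fold change was −0.40 ± 0.07 in KLE cells and −0.79 ± 0.06 in Ishikawa cells.

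Both chromokinesins, which push chromosome arms away from the poles, were lower with copper. KIF4A, which also sets the length of the central spindle with PRC1, stood at 103, 96.4 and 103 CPM in copper-treated and 126, 129 and 128 CPM in untreated KLE cells. In Ishikawa cells KIF4A stood at 87.6, 90.1 and 86.6 CPM with copper, against 133, 128 and 137 CPM without. Its fold change was −0.34 ± 0.04 in KLE cells and −0.56 ± 0.05 in Ishikawa cells, while PDZD11, a coding gene on the other strand of the KIF4A locus, was called higher in both lines (0.26 and 0.34). KIF22 (Kid) stood at 66.5, 61.7 and 65.1 CPM in copper-treated KLE cells, against 80.9, 83.8 and 86.8 CPM in untreated KLE cells. Its Ishikawa levels were 77.3, 75.9 and 72.1 CPM with copper and 96.1, 98.4 and 94.5 CPM without. The groups of KIF22 stayed apart in both lines, with fold changes of −0.38 ± 0.05 in KLE cells and −0.33 ± 0.06 in Ishikawa cells.

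The remaining motors of the central spindle and midbody moved least. KIF23 (MKLP1) forms the centralspindlin complex with RACGAP1, KIF14 brings citron kinase to the midbody, and KIF20B acts late in abscission. KIF23 stood at 135, 120 and 125 CPM in copper-treated KLE cells, against 162, 151 and 145 CPM in untreated KLE cells, and its fold change was −0.27 ± 0.05 (edgeR adjusted p = 6.91e-06). In Ishikawa cells KIF23 stood at 142, 140 and 146 CPM with copper and 160, 146 and 169 CPM without, and the fold change of −0.12 ± 0.06 did not pass the test (edgeR adjusted p = 0.0712). Without the second untreated Ishikawa library the value was −0.19 and passed (edgeR adjusted p = 0.000738), as it did with upper-quartile factors (0.00226), library totals (0.000442), no count filter (0.043), the fit of 12 libraries (0.00642) and limma on TPM (0.00217). KIF14 stood at 74.2, 77.1 and 81.1 CPM in copper-treated and 92.0, 84.0 and 88.0 CPM in untreated KLE cells, a change of −0.18 ± 0.05. In Ishikawa cells KIF14 stood at 98.3, 102 and 95.3 CPM with copper, against 97.7, 90.7 and 109 CPM without, with full overlap and a 95% interval of −0.11 to 0.15 on the log2 scale. KIF20B stood at 175, 183 and 178 CPM in copper-treated KLE cells, against 198, 188 and 187 CPM in untreated KLE cells. This was the smallest mitotic change called in KLE cells (−0.10 ± 0.04, edgeR adjusted p = 0.0248). The call was lost without the first untreated (adjusted p = 0.115), the first copper-treated (0.0879) or the third copper-treated KLE library (0.0646), and with DESeq2 (0.0555) and limma on TPM (0.143). It was also lost in the edgeR fit of 12 libraries (adjusted p = 0.2) and with the replicate block (0.0525). In Ishikawa cells KIF20B stood at 150, 172 and 151 CPM with copper, against 164, 141 and 167 CPM without, with overlap and a 95% interval of −0.10 to 0.18.

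**Figure D2:**
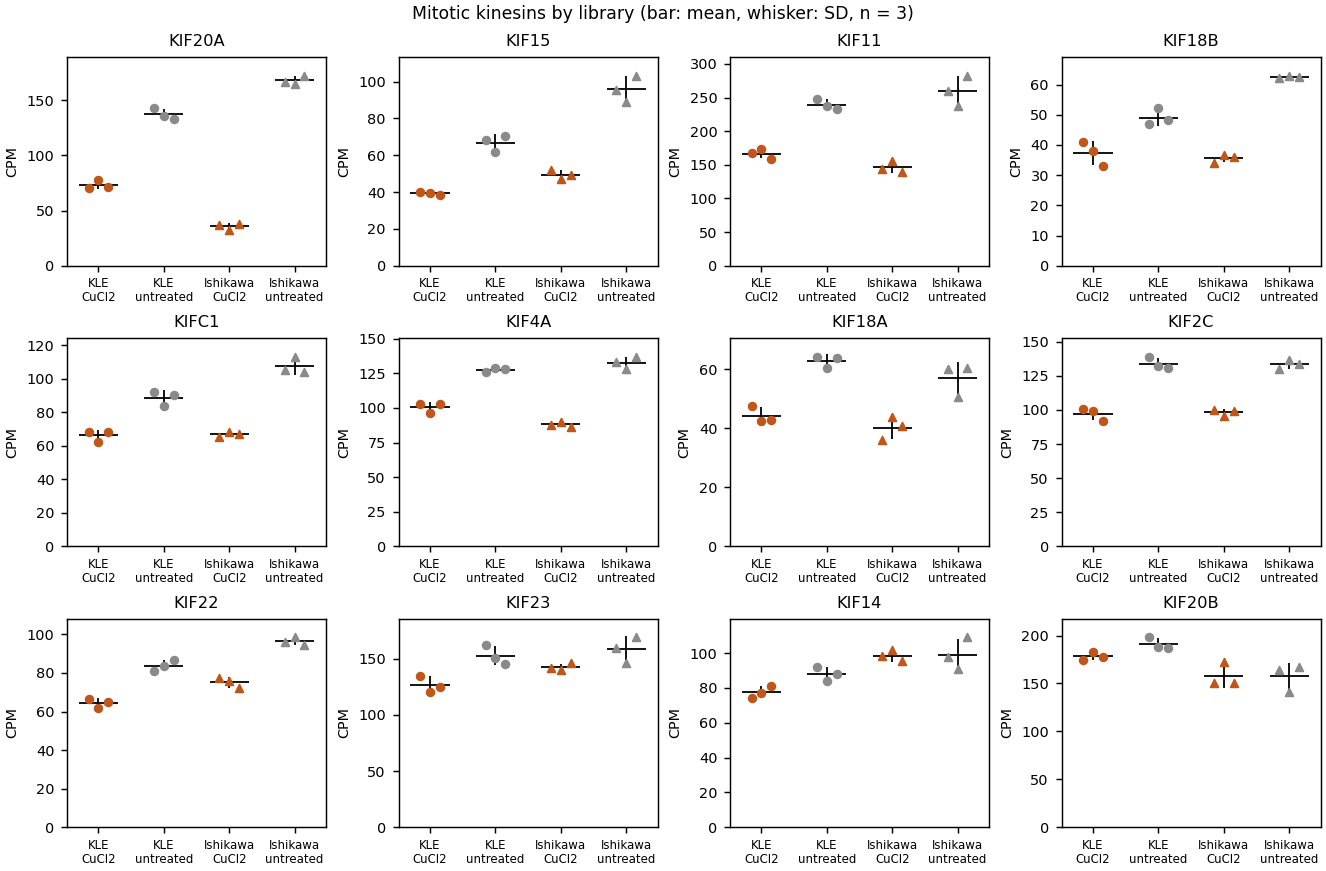
CPM (y axis, from 0) of the 12 mitotic kinesins in each library, copper-treated left of untreated for KLE (circles) and Ishikawa cells (triangles); bars are means and whiskers SD of 3 libraries. In the KLE panels every copper-treated point lies under every untreated point, and in the Ishikawa panels this holds for all but KIF14, KIF20B and KIF23. For KIF23 the highest copper-treated and the lowest untreated Ishikawa points are both drawn at 146 CPM.

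The copper-treated and untreated groups did not overlap for 12 of 12 mitotic kinesins in KLE cells, where 28.2% of all tested genes were lower without overlap, and for 10 of 12 in Ishikawa cells, where 39.0% were. These 10 include KIF23, whose highest copper-treated and lowest untreated Ishikawa libraries both round to 146 CPM. Of the other kinesins, 9 were higher without overlap in KLE cells, where 28.4% of all tested genes were, and 7 in Ishikawa cells, where 33.7% were. Another 4 were lower without overlap in KLE cells and 10 in Ishikawa cells. MKI67, a marker of cycling cells, moved with them, with a log2 fold change of −0.93 ± 0.03 in KLE cells and −1.71 ± 0.04 in Ishikawa cells, and the part of the cycling fraction was not tested. Within the mitotic group the related genes KIF20A and KIF20B parted. The ratio of KIF20A to KIF20B counts, which needs no scaling between libraries, was 0.405, 0.424 and 0.403 in copper-treated and 0.724, 0.722 and 0.707 in untreated KLE cells. In Ishikawa cells this ratio was 0.244, 0.188 and 0.253 with copper, against 1.02, 1.17 and 1.03 without. No copper-treated library came near an untreated one in this ratio in either line.

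Summed over members, mitotic kinesin transcripts outweighed those of the other kinesins in untreated libraries and not in copper-treated ones. The 12 mitotic kinesins summed to 570 ± 20.6 TPM in copper-treated and 785 ± 6.53 TPM in untreated KLE cells, and to 531 ± 15.1 TPM in copper-treated and 898 ± 12.98 TPM in untreated Ishikawa cells (mean ± SD, n = 3). The 30 other kinesins summed to 846 ± 20.9 TPM in copper-treated and 756 ± 18.6 TPM in untreated KLE cells, and to 831 ± 11.3 TPM in copper-treated and 723 ± 7.97 TPM in untreated Ishikawa cells. The ratio of the mitotic to the other sum was 0.684, 0.681 and 0.657 in copper-treated KLE libraries, against 1.05, 1.05 and 1.02 in untreated ones. In Ishikawa cells it was 0.628, 0.650 and 0.639 with copper, against 1.21, 1.25 and 1.26 without. All 6 untreated libraries lay above 1 and all 6 copper-treated ones below it. The summed other kinesins were carried by few genes, with KIF1A, KIF5B, KIF1C, KIF1B and KIF21A at the top by TPM in copper-treated Ishikawa cells.

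**Figure D3:**
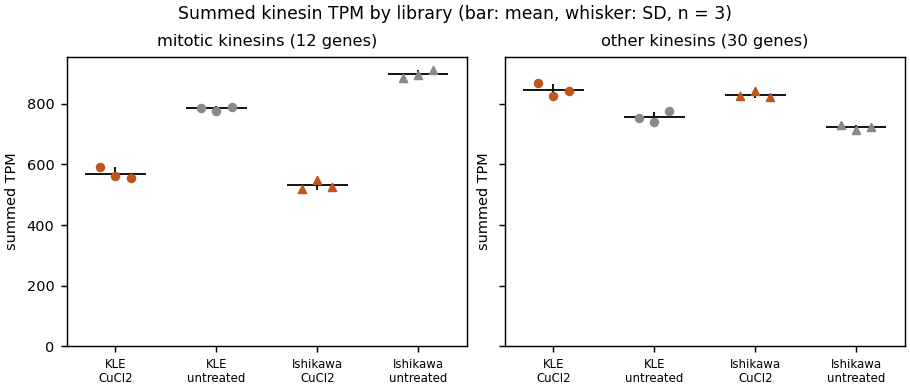
Summed TPM per library (y axis, from 0) of the 12 mitotic kinesins (left) and the 30 other kinesins (right), copper-treated left of untreated in each line; bars are means and whiskers SD of 3 libraries. The mitotic sum is 554 to 593 TPM in copper-treated and 778 to 790 TPM in untreated KLE libraries, and 520 to 548 and 887 to 912 TPM in copper-treated and untreated Ishikawa libraries.

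Of the 9 transport kinesins, 8 were tested in each line, and 5 rose and none fell in KLE cells (25.6% and 25.2% of all tested genes) while 4 rose and 1 fell in Ishikawa cells (33.8% and 35.3%). KIF1B, which moves mitochondria, vesicle precursors and lysosomes, rose most. It stood at 240, 232 and 244 CPM in copper-treated and 154, 149 and 155 CPM in untreated KLE cells. In Ishikawa cells KIF1B stood at 389, 407 and 376 CPM with copper, against 190, 184 and 189 CPM without. The groups were widely separated, with log2 fold changes of 0.65 ± 0.04 in KLE cells (edgeR adjusted p = 1.12e-18) and 1.09 ± 0.05 in Ishikawa cells (edgeR adjusted p = 3.58e-11). Genes called higher by 1 or more made up 1.86% of those tested in KLE cells and 7.83% in Ishikawa cells. KIF1A stood at 612, 582 and 605 CPM in copper-treated KLE cells, against 492, 482 and 495 CPM in untreated KLE cells (0.29 ± 0.03). In Ishikawa cells it stood at 556, 582 and 557 CPM with copper, against 443, 492 and 412 CPM without (0.36 ± 0.06), and neither line's groups overlapped. KIF5B stood at 495, 494 and 512 CPM in copper-treated KLE cells, against 475, 459 and 462 CPM in untreated KLE cells, a change of 0.10 ± 0.03. That call was lost without the third copper-treated KLE library (edgeR adjusted p = 0.0501), with upper-quartile factors (0.0954), in the fit of 12 libraries (0.0589) and with limma on TPM (0.161). In Ishikawa cells KIF5B stood at 598, 632 and 604 CPM with copper, against 444, 391 and 447 CPM without, a change of 0.55 ± 0.05 with clear separation.

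KIF1C, a carrier of dense-core vesicles and integrins, rose in KLE cells (0.21 ± 0.03, a call lost with limma on TPM) and gave 0.02 ± 0.05 in Ishikawa cells, which was not called. It was called lower with library totals (−0.13, adjusted p = 0.0191) and with limma on TPM (−0.19, adjusted p = 0.0428). The ratio of KIF1B to KIF1C counts was 0.670, 0.670 and 0.718 in copper-treated and 0.5, 0.514 and 0.506 in untreated KLE cells. In Ishikawa cells it was 1.38, 1.49 and 1.37 with copper, against 0.687, 0.641 and 0.706 without, so KIF1B counts exceeded those of KIF1C in copper-treated Ishikawa cells alone among the 4 groups. KIF13A, an endosome and melanosome motor, fell in Ishikawa cells (−0.21 ± 0.06) and rose in KLE cells (0.12 ± 0.05, edgeR adjusted p = 0.0414). It was the one kinesin called in opposite directions. Its KLE levels were 67.2, 67.8 and 67.4 CPM with copper and 60.3, 61.7 and 64.2 CPM without, and the KLE call was lost without any one of 5 of the 6 libraries and with DESeq2 (adjusted p = 0.108). KIF5C, a neuronal heavy chain at 2.89 to 3.56 CPM in copper-treated and 1.6 to 2.51 CPM in untreated Ishikawa cells, was called higher there (0.63 ± 0.24, edgeR adjusted p = 0.0277), but not without the second untreated library (0.127), without the first (0.102) or second (0.0681) copper-treated library, or with DESeq2 (0.0603). KIF13B and KIF16B, both linked to endosomes and membranes, passed the test in neither line (KIF13B −0.13 ± 0.07 in KLE cells and −0.11 ± 0.08 in Ishikawa cells, KIF16B −0.08 ± 0.06 and −0.15 ± 0.07). KIF16B was called lower in Ishikawa cells without the first untreated library (−0.20, adjusted p = 0.045), in the fit of 12 libraries (0.00456), with upper-quartile factors (0.00359), library totals (0.00133) and limma on TPM (0.0121). KIF13B was called lower with upper-quartile factors and library totals in KLE cells (0.0312 and 0.0468) and in Ishikawa cells (0.0285 and 0.0121), and KIF5A was too low to test within a line.

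Of 8 tested cilium and Hedgehog kinesins, 2 were lower and 1 higher in KLE cells, where 25.2% of all tested genes were lower and 25.6% higher, so the count there was at the background. In Ishikawa cells 5 of 8 were lower and 1 higher, beside 35.3% and 33.8% of all tested genes. KIF7, a regulator of Hedgehog signalling at the cilium tip, stood at 5.27, 6.14 and 6.38 CPM in copper-treated and 7.51, 7.18 and 8.39 CPM in untreated KLE cells. In Ishikawa cells KIF7 stood at 4.58, 4.25 and 4.37 CPM with copper, against 7.05, 8.01 and 6.88 CPM without. The groups did not overlap, and the fold change was −0.38 ± 0.14 in KLE cells (edgeR adjusted p = 0.0261) and −0.71 ± 0.15 in Ishikawa cells. The KLE call was lost without the third untreated or without the first copper-treated KLE library (adjusted p = 0.116 in each case) and with DESeq2 (0.0857). TICRR, a coding gene on the other strand of the KIF7 locus, was called lower in KLE cells (−0.225) and was not called in Ishikawa cells (−0.096). Sharing of reads between KIF7 and TICRR was not tested. KIF27, a close relative of KIF7, stood at 11.3, 12.3 and 11.8 CPM in copper-treated KLE cells, against 17.0, 17.0 and 17.9 CPM in untreated KLE cells. Its Ishikawa levels were 10.2, 9.27 and 10.2 CPM with copper and 17.6, 15.1 and 18.4 CPM without. The groups were separate and KIF27 fell in both lines (−0.55 ± 0.10 in KLE cells and −0.74 ± 0.11 in Ishikawa cells).

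Within kinesin-2, the motor of intraflagellar transport, subunits did not move together. KIF3C, which can replace KIF3B as the partner of KIF3A, stood at 23.3, 24.4 and 25.3 CPM in copper-treated and 24.2, 23.9 and 21.6 CPM in untreated KLE cells. In Ishikawa cells KIF3C stood at 8.80, 8.61 and 9.55 CPM with copper, against 14.9, 15.7 and 17.7 CPM without. The KLE groups overlapped (0.07 ± 0.08) and the Ishikawa groups were separate (−0.82 ± 0.11, edgeR adjusted p = 1.09e-05). KIF3A, the shared motor subunit, rose in KLE cells (0.27 ± 0.07, a call lost with limma on TPM, adjusted p = 0.121) and gave 0.06 ± 0.08 in Ishikawa cells, which was not called. KIF3B fell in Ishikawa cells (−0.15 ± 0.05), a call lost without the first copper-treated library (edgeR adjusted p = 0.0576), and gave −0.10 ± 0.04 in KLE cells (edgeR adjusted p = 0.0503). In KLE cells KIF3B was called lower with upper-quartile factors (edgeR adjusted p = 0.00463), library totals (0.0116) and a filter of CPM above 1 in 3 libraries (0.0414). The same held without the first untreated (0.0143) or the first copper-treated KLE library (0.0342). KIF17, the homodimeric kinesin-2, was called lower in Ishikawa cells at 0.663 to 0.897 CPM with copper and 1.17 to 2.21 CPM without, and this call was lost without the second untreated library (adjusted p = 0.0813). KIF24, which restrains cilium assembly, was called higher in Ishikawa cells (0.19 ± 0.07), a call lost under 9 of the alternatives, among them leaving out the first (adjusted p = 0.0966) or the third (0.0623) untreated or the first copper-treated library (0.133), upper-quartile factors (0.343) and library totals (0.675). UBAP1, a coding gene on the other strand of the KIF24 locus, was called higher in Ishikawa cells (0.95) and in KLE cells (0.37). Whether reads were shared between the 2 genes was not tested. KIF9, known from motile cilia, was called in neither line. In Ishikawa cells its counts gave 0.32 ± 0.18 while limma on the TPM gave −0.46, and KLHL18 on the other strand of its locus rose there by 1.19 on the log2 scale. The TPM value passed (adjusted p = 0.0247), as did the count value of 0.46 without the second copper-treated library (0.0486).

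Kinesins of microtubule dynamics and the minus-end group held some of the largest changes. KIFC3, a minus-end motor at epithelial junctions, stood at 23.6, 20.3 and 23.2 CPM in copper-treated and 9.62, 11.0 and 10.2 CPM in untreated KLE cells. In Ishikawa cells KIFC3 stood at 10.9, 8.25 and 8.07 CPM with copper, against 3.85, 5.80 and 4.96 CPM without. The groups did not overlap in either line, and the log2 fold change was 1.12 ± 0.10 in KLE cells (edgeR adjusted p = 3.85e-13) and 0.91 ± 0.17 in Ishikawa cells (edgeR adjusted p = 0.000277). The Ishikawa call was lost with limma on TPM (0.29, adjusted p = 0.342). KIF21A, which holds back microtubule growth at the cell cortex, stood at 189, 185 and 193 CPM in copper-treated KLE cells, against 129, 123 and 131 CPM in untreated KLE cells. In copper-treated Ishikawa cells it stood at 262, 269 and 261 CPM, against 132, 119 and 137 CPM in untreated Ishikawa cells. The untreated lines overlapped for KIF21A, and the fold change was 0.57 ± 0.04 in KLE cells and 1.06 ± 0.06 in Ishikawa cells. KIF26B, a divergent kinesin of Wnt5a signalling in mouse, stood at 24.7, 23.8 and 24.3 CPM in copper-treated and 41.1, 42.5 and 39.6 CPM in untreated KLE cells. Its Ishikawa levels were 10.6, 10.8 and 11.0 CPM with copper and 19.7, 17.7 and 14.2 CPM without. KIF26B fell in both lines (−0.76 ± 0.07 in KLE cells and −0.65 ± 0.12 in Ishikawa cells).

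KIF2A, a depolymerase at spindle poles that is not on the mitotic list, gave 0.06 ± 0.04 in KLE cells and 0.09 ± 0.05 in Ishikawa cells, with overlapping groups, whereas its relative KIF2C fell in both. KIFC2, a minus-end motor known from neurons, passed in neither line (−0.28 ± 0.13 in Ishikawa cells, edgeR adjusted p = 0.0577). Its Ishikawa change passed with the replicate number as a block (−0.28, adjusted p = 0.0486) and without the third untreated library (−0.39, adjusted p = 0.00906). It also passed there with upper-quartile factors (adjusted p = 0.0105), library totals (0.00637), the fit of 12 libraries (0.0222) and limma on TPM (0.0206). KIF21B, tested in KLE cells only, stood at 1.19 to 1.37 CPM with copper and 0.512 to 0.843 CPM without. It was called higher (0.94 ± 0.36, edgeR adjusted p = 0.0293), and the call was lost without any one of 5 of the 6 KLE libraries and with DESeq2 (0.104). Too few counts for a test in either line were found for KIF12, KIF19, KIF25, KIF26A, KIF2B, KIF4B, KIF5A and KIF6. KIF4B is a near copy of KIF4A, and its 0.0598 to 0.186 CPM depend on how reads were shared between the copies, as do the KIF4A values to that small extent.

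**Figure D4:**
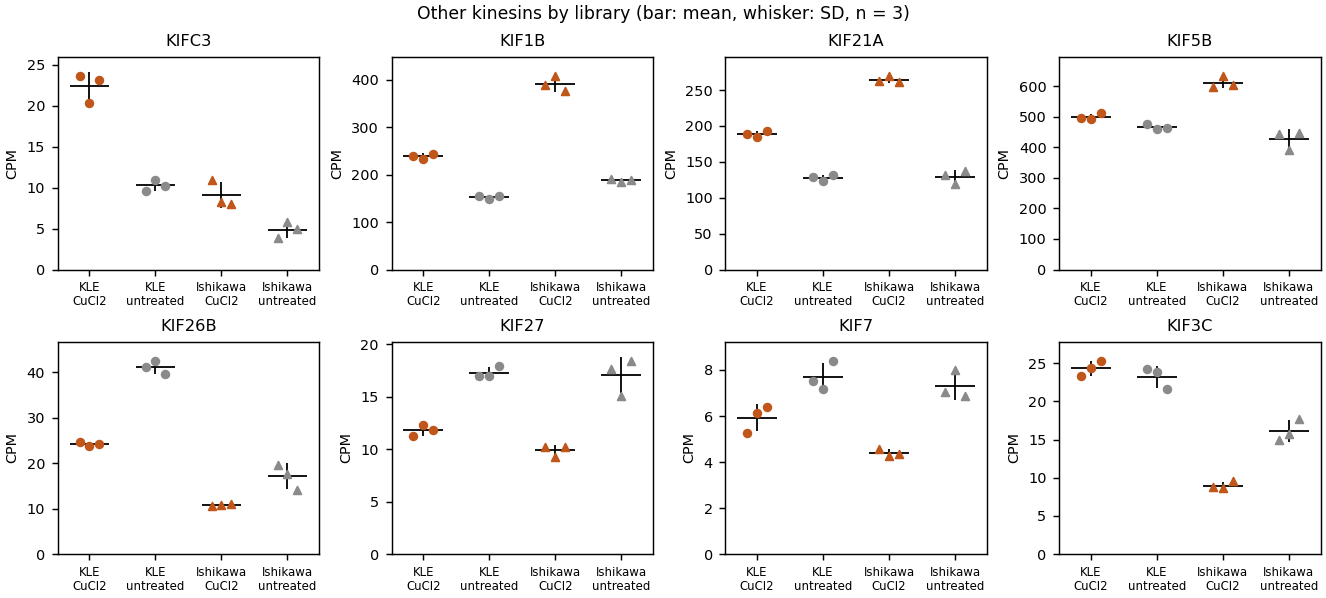
CPM (y axis, from 0) of 8 other kinesins in each library, copper-treated left of untreated for KLE (circles) and Ishikawa cells (triangles); bars are means and whiskers SD of 3 libraries. KIFC3, KIF1B, KIF21A and KIF5B lie higher with copper, KIF26B, KIF27 and KIF7 lie lower, and KIF3C is lower with copper in Ishikawa cells alone.

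Whether a kinesin responded differently in the lines was tested as the interaction of line and copper in a fit of all 12 libraries. Of 35 members tested, 12 differed, beside 45.4% of all tested genes, with 9 differences above 0 (24.6% of all genes) and 3 below (20.8%). Among mitotic kinesins 5 of 12 differed, and all 5 were lowered less in KLE cells. The largest was KIF20A at 1.36 ± 0.08 (KLE minus Ishikawa response, log2, edgeR adjusted p = 9.13e-12), followed among mitotic members by KIF18B at 0.45 ± 0.10. KIF11, KIFC1 and KIF4A gave 0.33 ± 0.08, 0.30 ± 0.08 and 0.28 ± 0.06. KIF2C, KIF22 and KIF18A gave differences of 0.01, 0.01 and 0.02 with 95% intervals of −0.12 to 0.14, −0.13 to 0.14 and −0.19 to 0.23. KIF15 gave 0.22 ± 0.09 and was not called (edgeR adjusted p = 0.0582), but passed without the second untreated Ishikawa library (0.28, adjusted p = 0.00814) or the third untreated KLE library (0.26, adjusted p = 0.0404), and with the replicate number as a block (0.22, adjusted p = 0.0467). The block also called KIFC2 (0.43, adjusted p = 0.0327, against 0.44 and 0.0540 without it), giving 11 differences above 0. The mitotic kinesin KIF14 gave −0.149 ± 0.085 and was not called. Without the third untreated Ishikawa library it passed in the direction of a stronger fall in KLE cells (−0.222, edgeR adjusted p = 0.0178). KIF27 gave 0.25 ± 0.14 and was not called, but passed without the second untreated Ishikawa library (0.34, adjusted p = 0.0436). Of the other kinesins, KIF3C differed by 0.94 ± 0.13, KIF13A by 0.39 ± 0.07 and KIF1C by 0.24 ± 0.06. KIF3A differed by 0.28 ± 0.10, a call lost without any of 8 of the 12 libraries taken singly (highest adjusted p = 0.124) and with DESeq2 (0.125). The rises of KIF21A, KIF1B and KIF5B were smaller in KLE cells, with differences of −0.44 ± 0.07, −0.39 ± 0.06 and −0.39 ± 0.06. The KIF21A difference was not called with limma on TPM (−0.18, adjusted p = 0.0836). KIFC3 and KIF26B, which changed in both lines, gave no called difference (0.27 ± 0.19 and −0.06 ± 0.13).

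Without copper the lines differed in 20 of 35 members, 10 higher and 10 lower in KLE cells, beside 50% of all tested genes (24.5% higher, 25.6% lower). Of the mitotic kinesins 1 was higher and 6 were lower in KLE cells. Without overlap between the lines, 11 members were higher and 9 lower in KLE cells, beside 27.4% and 27.7% of all tested genes. KIF26B differed most, at 41.1 ± 1.41 CPM in untreated KLE and 17.2 ± 2.77 CPM in untreated Ishikawa cells, a log2 difference of 1.25 ± 0.09. KIFC3 followed at 10.3 ± 0.71 and 4.87 ± 0.98 CPM, a difference of 1.05 ± 0.14. KIF3C stood at 23.3 ± 1.40 CPM in untreated KLE and 16.1 ± 1.42 CPM in untreated Ishikawa cells (0.53 ± 0.09). KIF13B and KIF16B were also higher in KLE cells (0.46 ± 0.07 and 0.44 ± 0.06). KIF15 was the mitotic kinesin with the largest difference, at 66.9 ± 4.43 CPM in untreated KLE and 95.7 ± 6.84 CPM in untreated Ishikawa cells (−0.52 ± 0.06). KIF20A was lower in KLE cells (−0.30 ± 0.05), and KIF20B was higher by 0.28 ± 0.06, a call lost with limma on TPM (adjusted p = 0.0993), so the 2 related genes differed in opposite directions without copper. Without the second untreated Ishikawa library KIF11 (−0.18, adjusted p = 0.00101) and KIF2A (−0.12, adjusted p = 0.034) became called lower in KLE cells, and the calls of KIF24 (adjusted p = 0.0949) and KIF5B (0.164) were lost. The untreated libraries also enter the response difference, so both sets of values share them.

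Genes that work with the mitotic kinesins mostly fell with them. Of 26 listed mitotic partners, 20 fell and 4 rose in KLE cells and 19 fell and 4 rose in Ishikawa cells, with medians of −0.33 and −0.56, where 25.2% and 35.3% of all tested genes fell. PSRC1, a spindle protein that promotes microtubule growth, fell in both lines (−1.30 ± 0.10 in KLE cells and −2.49 ± 0.11 in Ishikawa cells, log2). PLK1, the mitotic kinase that acts with KIF20A at the central spindle, fell in both lines (−0.75 ± 0.05 in KLE cells and −2.11 ± 0.06 in Ishikawa cells). KNSTRN, a kinetochore and spindle protein, fell by 1.06 ± 0.06 in Ishikawa cells, and NUSAP1, a spindle microtubule binder, fell by 0.68 ± 0.04 in KLE cells. RACGAP1, the partner of KIF23, fell (−0.34 and −0.70), as did PRC1, the partner of KIF4A (−0.30 and −0.26), and CIT, the partner of KIF14 (−0.56 and −0.68), each in KLE and then Ishikawa cells. HMMR, a spindle protein, rose in both lines (0.40 and 0.32). These 4 genes were named after their values were seen, as direct partners of kinesins or as an exception.

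Cycling markers fell with 8 of 10 in each line (1 rose in KLE cells). Of all tested genes, 25.2% fell and 25.6% rose in KLE cells, and 35.3% fell and 33.8% rose in Ishikawa cells. CCNA2 gave −0.82 ± 0.04 and −1.17 ± 0.06 and TOP2A −0.58 ± 0.03 and −0.88 ± 0.04 in KLE and Ishikawa cells. The 14 listed MuvB, MYB, FOXM1 and E2F regulators of mitotic genes did not lean one way. Of these, 5 were higher and 5 lower in KLE cells and 6 higher and 5 lower in Ishikawa cells, beside the same shares of all genes. LIN54, the subunit that contacts the CHR, rose by 0.58 ± 0.05 in KLE cells and 1.38 ± 0.06 in Ishikawa cells, and LIN37, another MuvB subunit, rose by 1.18 ± 0.12 in Ishikawa cells. E2F1, an activator of cell cycle genes, fell by 0.96 ± 0.10 in Ishikawa cells. E2F5, a repressor-type E2F, fell by 0.61 ± 0.09 and TFDP2, an E2F partner, fell by 0.36 ± 0.06 in KLE cells. FOXM1, the activator of late cell cycle genes, was called in neither line (−0.05 ± 0.04 in KLE cells and −0.09 ± 0.05 in Ishikawa cells), and was named after its values were seen.

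Cargo links, the minus-end motor and the tracks moved in other ways. Of 24 light chains, adaptors and cargo links, 11 rose and 4 fell in KLE cells and 12 rose and 6 fell in Ishikawa cells, beside 25.6% and 25.2% of all tested genes in KLE cells and 33.8% and 35.3% in Ishikawa cells. SPAG9, a scaffold between kinesin-1 and dynein, rose by 0.66 ± 0.05 in KLE cells and 1.41 ± 0.05 in Ishikawa cells. BLOC1S2, a subunit of the complex that positions lysosomes, rose by 0.31 ± 0.06 and 1.34 ± 0.07. KLC1, a light chain of kinesin-1, rose by 0.36 ± 0.04 in KLE cells, and RAB3GAP1, a regulator of vesicle GTPases, rose by 0.86 ± 0.06 in Ishikawa cells. Of 27 tested dynein and dynactin genes, 15 rose and 3 fell in KLE cells and 17 rose and 6 fell in Ishikawa cells. DYNC1LI1, a dynein light intermediate chain, rose by 0.45 ± 0.04 in KLE cells and 1.17 ± 0.05 in Ishikawa cells. DCTN4, a dynactin subunit, rose by 1.13 ± 0.05 in Ishikawa cells, and ACTR10, another, rose by 0.35 ± 0.06 in KLE cells. NDE1, a dynein regulator of mitosis, fell in both (−0.76 ± 0.06 and −1.24 ± 0.08).

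Of 19 tested intraflagellar transport genes, 0 rose and 6 fell in KLE cells and 4 rose and 9 fell in Ishikawa cells, beside 25.6% and 25.2% of all tested genes in KLE cells and 33.8% and 35.3% in Ishikawa cells. IFT81, which binds tubulin cargo, fell in both lines (−0.53 ± 0.10 in KLE cells and −0.61 ± 0.10 in Ishikawa cells). IFT172, also of the anterograde train that kinesin-2 pulls, fell in both lines (−0.54 ± 0.09 in KLE cells and −0.52 ± 0.09 in Ishikawa cells). IFT140, of the retrograde train, fell by 1.15 ± 0.12 in Ishikawa cells, and IFT80, another anterograde subunit, fell by 0.38 ± 0.07 in KLE cells. Among tubulins, 7 of 14 tested rose and 2 fell in KLE cells, and 6 of 15 rose and 5 fell in Ishikawa cells, against the same shares of all genes, to which the Ishikawa counts were close. TUBB3, the neuronal beta-tubulin, stood at 22.6 ± 0.75 CPM in copper-treated and 13.1 ± 0.82 CPM in untreated KLE cells, and at 53.1 ± 4.46 CPM in copper-treated and 4.21 ± 0.54 CPM in untreated Ishikawa cells (3.68 ± 0.11 on the log2 scale). TUBB2A and TUBA4A rose in both lines, TUBB2A by 0.89 and 1.85 and TUBA4A by 0.89 and 1.83.

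**Figure D5:**
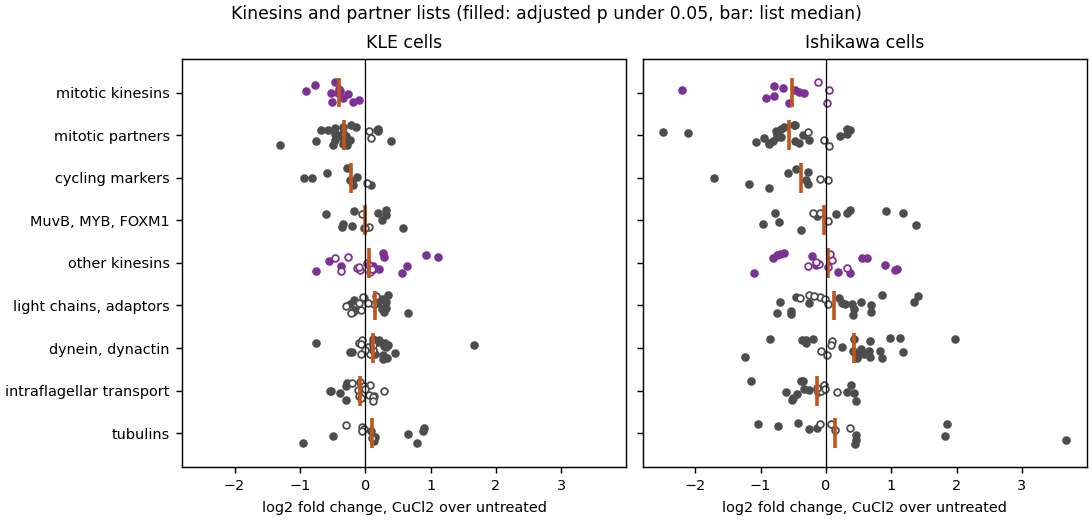
Log2 fold changes (x axis, CuCl2 over untreated) of kinesins and their partner lists in KLE (left) and Ishikawa cells (right); each point is a gene, filled where adjusted p was under 0.05, and the orange bar is the list median. Mitotic kinesins and mitotic partners lie mostly left of 0 (medians −0.41 and −0.33 in KLE cells, −0.51 and −0.56 in Ishikawa cells), and dynein and dynactin genes lie mostly right of it.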

How the data were processed

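RNA from 12 cultures was sequenced as oligo(dT)-enriched libraries, per the labels' protocols. Per the submitters' processing notes, the tools included HISAT2 2.1.0 and Bowtie2 2.2.8 with RSEM and fastp 0.18.0, and the build was GRCh38.p14, with no roles given. The authors deposited count tables of whole numbers, which equal the expected counts of their all-genes table to within 0.5. The deposited TPM values are scaled to transcript length by the authors. Tables named for FPKM hold the same TPM. Genes without a symbol (617, at most 0.207% of counts) stayed in the count matrix that was filtered and tested. None is a member, since members were taken by symbol.

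Counts were tested with edgeR 4.0.16 in R 4.3.3 (TMM scaling, filterByExpr, robust quasi-likelihood test, Benjamini-Hochberg adjusted p under 0.05 over all tested genes), in a fit of 6 libraries for each line. The response difference and the untreated lines were tested in a fit of all 12. SE is the log2 fold change divided by the root of F, and 95% intervals are 1.96 SE. CPM shown use the TMM factors of all 12 libraries. DESeq2 1.42.0, limma 3.58.1 on log2(TPM + 1) and log2(TPM + 0.1), other scalings and filters, a replicate block and each library left out were alternatives. On simulated data with 100 genes changed by each fold, the edgeR fit recovered 72% of 1.5-fold and 94% of 2-fold changes for copper in KLE cells (13031 genes, 7.78% of calls false) and 67% and 86% in Ishikawa cells (13359 genes, 7.27% false). False calls stood above the nominal rate in these single runs. Far fewer genes were changed there than copper moved here, so these shares do not give the error rate of the reported fits.

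Every mitotic kinesin is named. Of the other kinesins, the 6 with the largest absolute log2 fold change among those called at a mean of at least 5 CPM are named with all libraries, and of each partner list the top 3 in each line. The members and lists were chosen with earlier results of these data known. The labels give groups shared replicate numbers. Same-numbered Ishikawa libraries deviated together from their group means (r = 0.103, 0.206 and 0.142 over 10834 genes). Ishikawa libraries of unlike number gave −0.174 to 0.053. Same-numbered KLE libraries did not deviate together. Whether the numbers pair the libraries was not settled. The reported fits are unpaired, and the replicate block was run as an alternative. With the block, 11 response differences were above 0, against 9 without.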

Additional observations from a re-analysis of the deposited data

Results flagged for a closer look

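The copper response differed between the lines for 12 of 35 tested kinesins, beside 45.4% of all tested genes. These calls come from the interaction test of the 12-library fit (edgeR, adjusted p under 0.05, KLE minus Ishikawa, log2). Among mitotic kinesins the difference was 1.36 ± 0.08 for KIF20A (SE), 0.45 ± 0.10 for KIF18B, 0.33 ± 0.08 for KIF11, 0.30 ± 0.08 for KIFC1 and 0.28 ± 0.06 for KIF4A. Each of the 5 was lower with copper in both lines. Among other kinesins the difference was 0.94 ± 0.13 for KIF3C, 0.39 ± 0.07 for KIF13A, 0.28 ± 0.10 for KIF3A and 0.24 ± 0.06 for KIF1C. The KIF3A call was lost with DESeq2 (adjusted p = 0.125) and with most single libraries left out. The difference was −0.44 ± 0.07 for KIF21A, −0.39 ± 0.06 for KIF1B and −0.39 ± 0.06 for KIF5B, which rose in both lines. The KIF21A difference was not called with limma on TPM (adjusted p = 0.0836). KIF13A was called in opposite directions (0.12 in KLE cells and −0.21 in Ishikawa cells). Its KLE call was lost with upper-quartile factors (adjusted p = 0.207), DESeq2 (0.108), the replicate block (0.0594) and most single KLE libraries left out.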

How the results depend on the processing

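A rule that also asks for a log2 change of 1 or more in size is left aside in the next counts. The call was the same for 25 of 34 kinesins in KLE cells and 22 of 33 in Ishikawa cells under every alternative that tested them. The same held for 27 of 35 response differences and 23 of 35 differences between untreated lines. A change of sign in a member that stayed uncalled was not counted as a change of call. With limma on TPM (pseudocount 1 or 0.1), 4 kinesins were higher in KLE cells and 4 in Ishikawa cells, all of them other kinesins, 11 other kinesins were lower in Ishikawa cells, and 6 were higher in untreated KLE than Ishikawa cells. Library totals also gave 11 lower other kinesins in Ishikawa cells. In KLE cells 5 other kinesins were lower with upper-quartile factors, with library totals and with no count filter. With the fold rule, 1 kinesin was higher and 0 lower in KLE cells (0 mitotic, 0 other), 2 were higher and 2 lower in Ishikawa cells (1 mitotic, 1 other), 1 response difference was above 0 and 0 below, and 2 kinesins were higher and 1 lower in untreated KLE cells. The median of the mitotic kinesins in KLE cells was −0.451 with upper-quartile factors and −0.451 with log2(TPM + 0.1), and −0.453 to −0.394 with each library left out. In Ishikawa cells it was −0.627 with upper-quartile factors, −0.669 with library totals, −0.683 and −0.699 with TPM, −0.571 in the fit of 12 libraries, and −0.582 to −0.489 with each library left out. The median of the other kinesins in Ishikawa cells was −0.087, −0.129, −0.290 and −0.326 with upper-quartile factors, library totals and both TPM pseudocounts, 0.073 with no count filter, and 0.021 to 0.092 with each library left out. The median difference in response of the other kinesins was −0.061 with no count filter and −0.016 to 0.107 with each library left out, the lowest without the second copper-treated Ishikawa library. In Ishikawa cells KIF1C was −0.129 with library totals and −0.187 and −0.189 with TPM, and KIF9 was −0.455 and −0.505 with TPM. Upper-quartile factors and library totals lowered the share of higher calls among all genes to 39% and 35.7% in Ishikawa cells, against 48.9% with TMM, and to 40.5% and 43.4% in KLE cells, against 50.3%. The causes were not tested. With the replicate block, Ishikawa cells had 7 kinesins higher and 17 lower, KIFC2 being gained, and no other Ishikawa call changed. Same-numbered KLE libraries did not deviate together (r = −0.137, −0.069 and −0.162), and the block there gave 8 higher and 14 lower, 11 of them mitotic. A separate FPKM alternative was not run, since those tables hold the same TPM. At these depths 8 kinesins had too few counts for a test in either line.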
